A study of Mus musculus with 2 samples.

Results

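The 9 glial fate transcription factors described here are Olig1, Olig2, Sox2, Sox8, Sox9, Sox10, Nkx2-2, Nfia and Id4, chosen by gene symbol from the 19059 genes measured, and each had 1 row in the files. They were followed in single-cell RNA sequencing of orthotopic brain tumors grown in C57BL/6J mice from 1 line of mouse glioblastoma stem cells (mGSC), a Trp53+/- and Nf1+/- line. The mice were given vehicle or Xevinapant every day, and the tumors were taken right after treatment. Xevinapant is a SMAC mimetic, a small molecule that blocks inhibitor of apoptosis proteins. The mGSC genotype and the host strain were shared by both groups, and the tumors stand for this 1 line only.

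In the embryonic brain and spinal cord, glia arise when progenitors that carry Sox2, a SoxB1 factor of neural stem cells, turn on Sox9 and Nfia, which open the gliogenic programme. Olig2 and its neighbour Olig1 are basic helix-loop-helix (bHLH) proteins that specify oligodendrocyte progenitor cells (OPCs), and the SoxE factors Sox8 and Sox10 and the homeodomain factor Nkx2-2 carry these cells towards myelin formation. Sox9, the remaining SoxE factor, is kept in astrocytes. Id4 is a helix-loop-helix protein without a DNA-binding region that pairs with bHLH partners and holds them off DNA.

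The cells were fixed and read with gene probes, and the deposited values were counts of unique molecular identifiers (UMIs). Since a probe set differs from gene to gene, levels were compared for 1 factor between cells and never between factors. The share of cells in which a factor was detected depends on its probes too. A higher share of 1 factor than of another is therefore not read as a higher level. Each group had 4 count matrices with 4505 to 14728 barcodes and 71835789 to 300206053 UMIs. The design text gives 4 tumors a group, but in 3 pairs of matrices of the same group the mean levels of the genes in tumor cells differed by 1.29 to 2.63 times the sampling noise between cells, against 4.45 to 8.76 times in the other 9 pairs. Each of the 3 pairs was counted as 1 sample, which left 3 vehicle samples (vehicle 1+3, vehicle 2 and vehicle 4) and 2 Xevinapant samples (Xevinapant 1+2 and Xevinapant 3+4). Within a pool, 27.9% of the vehicle and 26.8% of the Xevinapant barcodes lay in a droplet that also held a barcode of another matrix. All vehicle cells were in 1 pool and batch and all Xevinapant cells in another, so treatment and batch cannot be told apart. The labels also name total RNA for one group and polyA RNA for the other. The names given to the Xevinapant matrices hold an X prefix but also the word Vehicle, and the groups were taken from the treatment label of each deposited sample.

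Of 50962 barcodes kept after filters, 34594 were tumor-gated by the tumor markers Ptprz1, Bcan, Ncan, Cspg5, Nes and Fabp7. Such cells also had to lie below 5 UMIs per 10000 for each list of immune, endothelial, mural, fibroblast, erythrocyte and mature oligodendrocyte markers. The tumor gate thus limited the levels of these markers in advance. No list left out host astrocytes or host OPCs, and cells were gated by marker expression alone, without inferred copy number. Any such host cells were therefore not told apart from tumor cells, in the AC and oligodendroglial gates as well, and their part was not tested. A gate on marker UMIs then placed a tumor cell in 1 state, the one with its highest standardized marker level. To pass a state, a cell needed at least 3 UMIs on at least 2 markers. Its marker level, standardized over tumor cells, also had to be at least 1. The gates, with some of their markers, held 1891 OPC (Pdgfra, Cspg4, Tnr), 2462 committed OPC (Gpr17, Neu4, Vcan), 2747 premyelinating (Enpp6, Bcas1), 4164 astrocyte-like (AC; Gfap, Aqp4, Slc1a3), 3077 neural progenitor-like (NPC; Dcx, Igfbpl1, Tubb3) and 3585 mesenchymal-like (MES; Vegfa, Ndrg1, Cd44) cells. The gate on Mfap4 and Cpxm2 held 4954 cells and rests on these 2 genes, so it is called by them. A further 11714 tumor cells passed no gate. None of the 9 factors was used in a gate. The AC marker Gjb6 was at 0 in the AC gate and the NPC marker Stmn2 stood at 0.312 CPM (the UMIs of a gene scaled to the same total in every sum of cells) in the NPC gate, while the other measured markers of each gate were detected in it. Markers of mature oligodendrocytes (Mog, Mag, Mobp and Aspa together) stood at 10.9 to 21.8 CPM in the premyelinating gate and at or below 1.63 CPM in every other gate. Neuron markers (5 genes together) reached 66.0 to 119.6 CPM in the NPC gate and at most 69.1 CPM elsewhere. The part of these cells in the results below was not tested.

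Where the genes lie is given here in GRCm38, with GENCODE vM21 positions, since the reads were mapped to mm10. Olig2 (ENSMUSG00000039830, chr16:91225457-91228677, plus strand) and Olig1 (ENSMUSG00000046160, chr16:91269772-91271933, plus strand) are neighbours on chromosome 16. Sox10 (ENSMUSG00000033006, chr15:79154908-79165240) and Sox8 (ENSMUSG00000024176, chr17:25565892-25570686) lie on the minus strand, as does Nkx2-2 (ENSMUSG00000027434, chr2:147177546-147194243). Sox9 (ENSMUSG00000000567, chr11:112782224-112787760), Nfia (ENSMUSG00000028565, chr4:97772734-98118874), Id4 (ENSMUSG00000021379, chr13:48261228-48266026) and Sox2 (ENSMUSG00000074637, chr3:34650405-34652461) lie on the plus strand. All 9 are protein-coding.

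RefSeq promoters (GRCm38.p6) were found for 6 of the 9 factors, with Olig1, Sox9 and Sox10 as missing entries. Those of 3 factors are printed here to show the E-box, CANNTG, the site that bHLH proteins such as the Olig factors bind and that Id proteins keep their partners from. E-boxes, searched on both strands in the 250 bases before the RefSeq start, are in capitals. The factors shown are Nkx2-2 and Id4, which had the 2 widest spans between gates among these 6, and Olig2. The runs lie before the start and outside GENCODE exons, at chr2:147186456-147186652 (minus strand) for Nkx2-2, chr13:48260866-48261115 (plus strand) for Id4 and chr16:91225300-91225456 (plus strand) for Olig2. The RefSeq start of Nkx2-2 lies 7841 bases inside the longer GENCODE gene.
Nkx2-2: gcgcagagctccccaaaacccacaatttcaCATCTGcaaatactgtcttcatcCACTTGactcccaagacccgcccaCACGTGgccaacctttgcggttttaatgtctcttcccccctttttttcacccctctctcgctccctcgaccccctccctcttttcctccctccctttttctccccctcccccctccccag
Id4: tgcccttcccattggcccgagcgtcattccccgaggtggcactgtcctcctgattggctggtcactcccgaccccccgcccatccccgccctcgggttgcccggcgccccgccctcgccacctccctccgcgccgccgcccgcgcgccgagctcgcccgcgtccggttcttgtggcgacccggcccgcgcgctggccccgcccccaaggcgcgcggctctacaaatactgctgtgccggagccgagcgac
Olig2: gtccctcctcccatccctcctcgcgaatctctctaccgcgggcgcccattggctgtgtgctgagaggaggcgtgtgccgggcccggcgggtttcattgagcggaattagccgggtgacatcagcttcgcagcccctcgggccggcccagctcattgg
The Nkx2-2 run held 3 E-boxes, and the Id4 and Olig2 windows held none. Of all 32851 promoter windows of this length, 66.2% held at least 1 E-box. The middle E-box of Nkx2-2 overlaps TCAAGTG read on the other strand, the letters known as a site of Nkx2 factors, which 2.68% of the windows held. Among the other factors, Sox8 held 1 E-box, Nfia held 4 and Sox2 held 0. The RefSeq start used for Nfia, chr4:97581943, lies far before the GENCODE start given above. These are matches of letters and not sites of binding.

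Against the OPC gate of the same samples, Olig1, Olig2, Sox8, Sox10 and Nkx2-2 were lower and Sox9, Nfia, Id4 and Sox2 were higher in AC-gated cells. All 9 passed the test (edgeR quasi-likelihood test on counts summed per sample and gate, with the sample as a block and Benjamini-Hochberg adjustment over all genes). The background for this count is high, since 62.3% of the 12900 genes tested passed in the same contrast, 32.0% higher and 30.3% lower. Each of the 6 gates was compared with the same OPC reference, so the contrasts are not independent of each other. Over the 6 contrasts, 17 member values were called higher, 22 lower, and 15 did not pass. The shares of all genes called higher and lower in the other contrasts were 4.12% and 5.88% in the committed OPC gate, 25.7% and 21.7% in the premyelinating gate, 30.7% and 28.3% in the NPC gate (59.0% in all), 32.5% and 31.7% in the MES gate (64.2%) and 32.0% and 28.0% in the Mfap4/Cpxm2 gate. Against these, the factors called higher and lower were 1 and 0, 3 and 3, 3 and 5, 3 and 5, and 3 and 4 of the 9. With the sample as a block, the p-values rest on how much the gate differences varied over these 5 samples of 1 line.

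**Figure D1:**
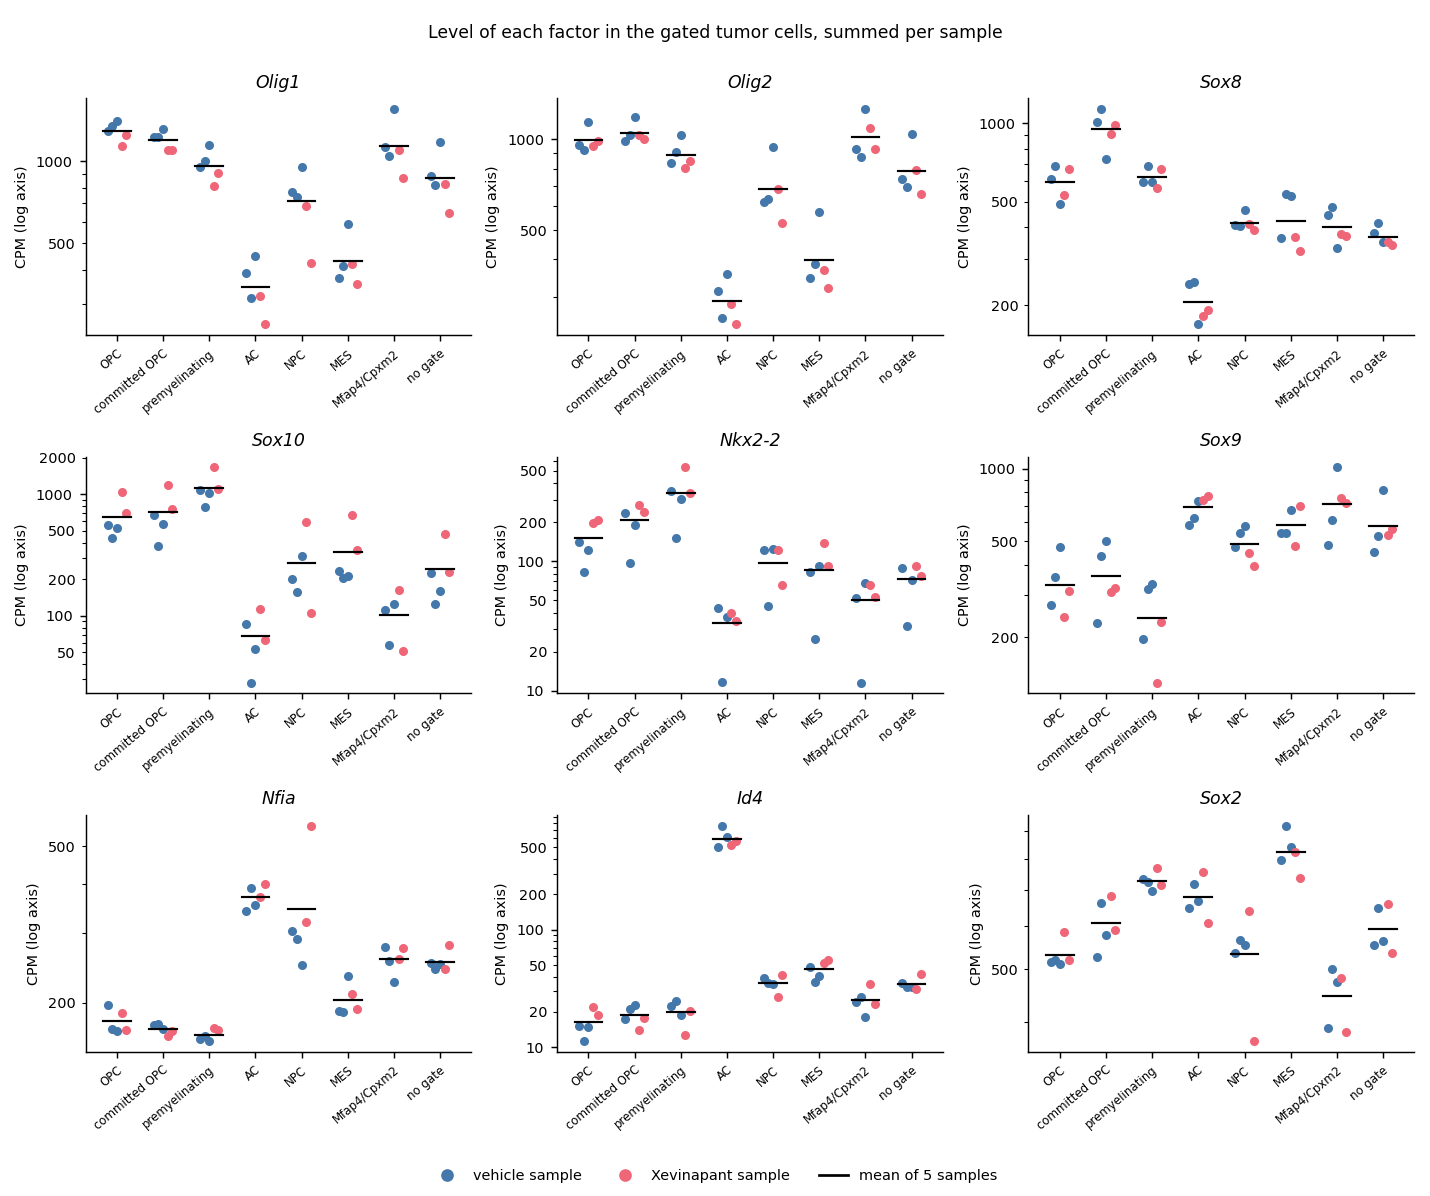
Level of each factor in CPM (log axis) in each gate, with 1 point per sample (blue, vehicle; red, Xevinapant) and a black line at the mean of the 5 samples. Sox10 and Nkx2-2 peaked in the premyelinating gate, Id4 stood apart in the AC gate, and Olig1 and Olig2 stayed high in the Mfap4/Cpxm2 gate, where Sox10 was low.

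Sox10, which turns on myelin genes together with Myrf, spanned the gates most widely among the oligodendroglial factors. In premyelinating cells it stood at 1087, 778 and 1015 CPM in vehicle 1+3, 2 and 4, and at 1658 and 1111 CPM in Xevinapant 1+2 and 3+4. In AC-gated cells the same samples gave 85.9, 28.2, 53.7, 113 and 63.5 CPM. Xevinapant 1+2 was the highest sample in both gates and vehicle 2 the lowest, and the 2 gates did not overlap. Against the OPC gate (654 ± 237 CPM, SD, n = 5), Sox10 was 1.75-fold higher in premyelinating cells (log2 fold change 0.81 ± 0.21 SE, edgeR adjusted p = 0.00196) and 9.42-fold lower in AC cells (log2 -3.24 ± 0.23, adjusted p = 4.88e-14). The premyelinating difference was 0.03 and not called with a second gating, in which the gates were not exclusive. It was also 6.44-fold lower in the Mfap4/Cpxm2 gate (102 ± 47.1 CPM), 2.64-fold lower in the NPC gate (273 ± 194 CPM) and 2-fold lower in the MES gate (336 ± 200 CPM). In the order of its means, premyelinating, committed OPC and OPC cells led, and each pair of neighbours in the order overlapped in range over the 5 samples.

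Nkx2-2, a homeodomain factor of OPC differentiation, took the same order as Sox10 at the top. It stood at 349.5, 151, 303, 531 and 338 CPM in the premyelinating gate of the 5 samples in the order above, with vehicle 2 again the lowest. The premyelinating gate was 2.16-fold above the OPC gate (151 ± 52.7 CPM, n = 5; log2 1.11 ± 0.17, edgeR adjusted p = 2.2e-06), which the second gating did not show (-0.01). The AC gate (33.4 ± 12.7 CPM) was 4.46-fold and the Mfap4/Cpxm2 gate (50.1 ± 22.6 CPM) 3.17-fold below it. NPC and MES cells were 1.62-fold and 1.8-fold lower, and in the vehicle samples alone the NPC difference was -0.33 on the log2 scale and not called (edgeR adjusted p = 0.222).

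Sox8, the SoxE factor that acts beside Sox10, had its highest level in committed OPCs. Its values there were 1011, 1133, 732, 907 and 981 CPM, and the range lay above that of the premyelinating gate (564 to 687 CPM). Sox8 was the single factor called between committed OPC and OPC cells, 1.56-fold higher (log2 0.64 ± 0.10, edgeR adjusted p = 0.000199), where 9.99% of all genes were called, and it was not called with the second gating (0.06). In AC-gated cells it was 2.8-fold lower (206 ± 35.5 against 597 ± 83.8 CPM) and the range lay below that of every other gate. It was 1.38-fold to 1.48-fold lower in the NPC, MES and Mfap4/Cpxm2 gates, and premyelinating cells were not called (log2 0.06 ± 0.11). In the vehicle samples alone the MES difference was -0.27 and not called (edgeR adjusted p = 0.118).

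Olig1 and Olig2, which specify and maintain the oligodendrocyte lineage, differed less between the 3 exclusive oligodendroglial gates than Sox10 and Nkx2-2 did. The second gating did not keep this order. In its premyelinating cells Olig1 (log2 -0.29) and Olig2 (-0.18) were called lower, while Sox10 (0.03) and Nkx2-2 (-0.01) were not called. Olig2 stood at 993 ± 84.2 CPM in OPC, 1048 ± 79.0 CPM in committed OPC and 886 ± 91.5 CPM in premyelinating cells (n = 5). Its small deficit in premyelinating cells (1.12-fold lower, edgeR adjusted p = 0.0472) was no longer called in 8 of 13 alternative fits, among them those leaving out vehicle 1+3 or either Xevinapant sample (adjusted p = 0.131, 0.11 and 0.0976). Olig1 was 1.34-fold lower in premyelinating than in OPC cells (964 ± 123 against 1287 ± 101 CPM, adjusted p = 0.000269). Both fell in AC cells, Olig1 by 1.88 and Olig2 by 1.73 on the log2 scale, and in MES cells, by 1.57 and 1.30. In the NPC gate both were lower as well, Olig1 by 1.88-fold and Olig2 by 1.51-fold.

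The Mfap4/Cpxm2 gate separated the Olig factors from the other oligodendroglial factors. Olig1 was at 1130, 1044, 1552, 1100 and 866 CPM there and Olig2 at 926, 875, 1258, 1087 and 926 CPM, and neither differed from the OPC gate by the test (log2 -0.19 ± 0.09, adjusted p = 0.0687, and 0.03 ± 0.07, adjusted p = 0.723). For Olig1 the call turned with the samples and the tool, with an adjusted p of 0.0102 without vehicle 4 and of 0.0426 in DESeq2. In the same cells Sox10 was at 112, 57.3, 126, 163 and 51.8 CPM and Nkx2-2 at 52.4, 11.6, 67.6, 65.6 and 53.3 CPM, both below the range of their OPC gate. Sox9 was 2.2-fold higher there than in OPC cells (log2 1.14 ± 0.14, edgeR adjusted p = 3.06e-08) and Nfia 1.45-fold higher. The background of this contrast was 60.0% of genes called.

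Sox9, the SoxE factor of astrocytes and of early gliogenesis, ran against Sox10. It stood at 581.5, 624.5, 734, 744 and 772 CPM in AC cells and at 196, 316, 331.5, 130 and 232 CPM in premyelinating cells, with no overlap between the gates. Compared with OPC cells (331 ± 90.8 CPM), it was 2.24-fold higher in AC cells (log2 1.16 ± 0.14, edgeR adjusted p = 1.26e-08), 1.87-fold higher in MES cells, 1.48-fold higher in NPC cells and 1.39-fold lower in premyelinating cells (adjusted p = 0.00674). The AC and Mfap4/Cpxm2 gates shared the top of its order with overlapping ranges, at 691 ± 83.1 and 717 ± 196 CPM.

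Nfia, a nuclear factor I protein of the onset of gliogenesis, was even across the 3 oligodendroglial gates and higher outside them. Its means were 179 ± 12.6, 172 ± 4.94 and 166 ± 5.45 CPM in OPC, committed OPC and premyelinating cells. In AC cells its values were 341.5, 391, 355, 372 and 399.5 CPM, 2.15-fold above OPC cells (log2 1.10 ± 0.11, edgeR adjusted p = 2.18e-10). NPC cells came next with 1.87-fold, where Xevinapant 3+4 was at 563 CPM and the other samples were at 249 to 320.5 CPM. MES cells (203 ± 18.9 CPM) did not pass the test in all samples together (adjusted p = 0.0821) and passed it in the vehicle samples alone (0.0392) and without Xevinapant 3+4 (0.017).

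Id4 had the widest difference between gates of the 9 factors. Its AC-gate values were 509.5, 764.5, 617, 520.3 and 565 CPM, and its OPC-gate values were 15.1, 11.3, 14.9, 22.2 and 18.9 CPM. The AC gate was 35.3-fold above the OPC gate (log2 5.14 ± 0.17, edgeR adjusted p = 7.08e-23) and stood above the range of every other gate. Next came MES cells (46.5 ± 8.07 CPM, 2.77-fold) and NPC cells (35.2 ± 5.49 CPM, 2.01-fold). The OPC level lies close to that of immune-gated cells (11.1 ± 2.68 CPM), which are described with the detection shares. The 1.39-fold difference of the Mfap4/Cpxm2 gate (adjusted p = 0.0235) was lost without vehicle 1+3, without vehicle 2 and without Xevinapant 3+4 (adjusted p = 0.072, 0.132 and 0.0568).

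Sox2, the neural stem cell factor, varied least. Its means ran from 446 ± 55.1 CPM in the Mfap4/Cpxm2 gate to 824 ± 67.6 CPM in the MES gate. It was 1.59-fold higher in MES (log2 0.67 ± 0.07, edgeR adjusted p = 7.81e-10), 1.37-fold higher in premyelinating and 1.32-fold higher in AC than in OPC cells. It was 1.19-fold lower in the Mfap4/Cpxm2 gate, and not called in NPC cells (log2 -0.03 ± 0.07). In the NPC gate Xevinapant 3+4 stood at 368 CPM and the other samples at 535 to 641 CPM.

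**Figure D2:**
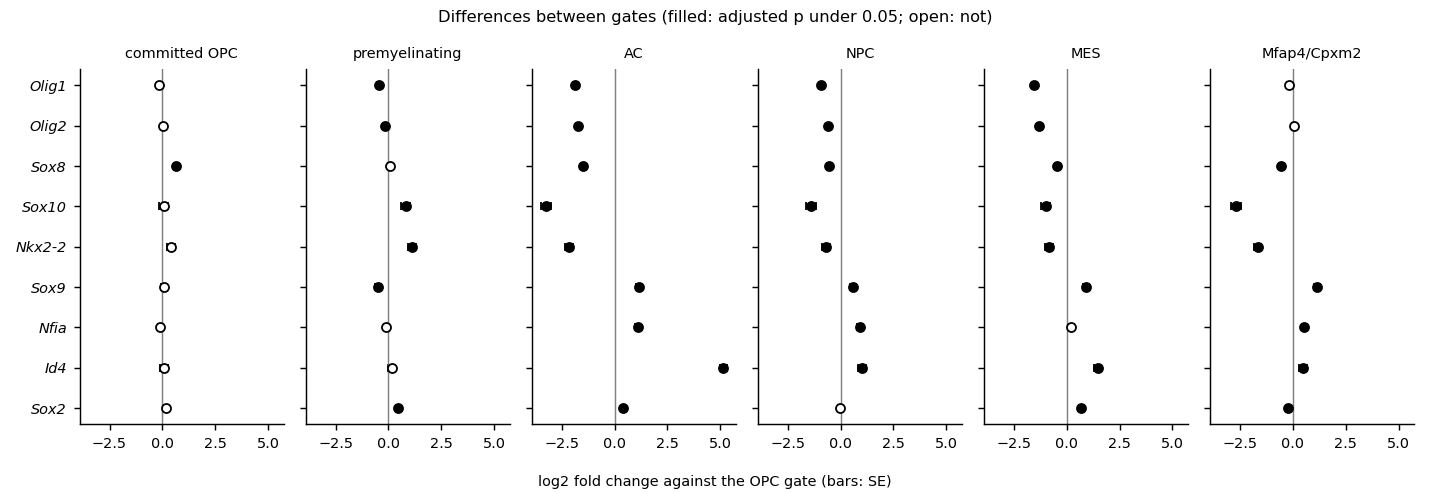
Difference of each factor between a gate and the OPC gate on the log2 scale, with bars for the standard error; filled points passed an adjusted p of 0.05 and open points did not. In the AC gate all 9 points are filled, from -3.24 for Sox10 to 5.14 for Id4, and in the committed OPC gate Sox8 alone is filled.

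With the second gating, the calls in the AC, NPC, MES and Mfap4/Cpxm2 gates held, and those in the committed OPC and premyelinating gates did not all hold. In it, a cell counted for a state when it passed all thresholds of that state and not those of the OPC gate. The OPC reference then also held cells that passed the thresholds of the premyelinating or committed OPC gate as well. Sox10 was then 0.03 higher on the log2 scale in premyelinating cells (edgeR adjusted p = 0.938), Nkx2-2 differed by -0.01 (0.982) and Sox9 by 0.27 (0.159), against 0.81, 1.11 and -0.47 in the exclusive gates. Sox2 in premyelinating cells was at 0.15 (0.118), against 0.46, and Sox8 in committed OPCs at 0.06 (0.742). New calls in this gating were those of Olig1 (-0.25), Sox2 (0.25) and Sox9 (0.46) in committed OPCs, of Sox8 (-0.39) and Id4 (0.98) in premyelinating cells and of Nfia (0.51) in MES cells. In the AC gate the same gating gave -3.51 for Sox10, -2.74 for Nkx2-2, 1.35 for Sox9, 1.24 for Nfia and 4.88 for Id4, all called. In the exclusive gates of the 2 Xevinapant samples alone, 7 calls were lost without a change of direction, those of Olig1, Olig2, Sox2 and Sox10 in premyelinating cells, Sox2 in AC, Sox10 in MES and Id4 in Mfap4/Cpxm2 cells (edgeR adjusted p from 0.0521 to 0.286). In the vehicle samples alone the call of Sox2 in Mfap4/Cpxm2 cells was lost too (-0.15, adjusted p = 0.0987), and Id4 was called higher in premyelinating cells (0.63, adjusted p = 0.0259).

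Other factors of the same programmes were counted from 4 lists, beside the 32.0% of all genes that were called higher and the 30.3% called lower in AC cells. Those named as most changed are from genes at a mean log2 CPM of 3 or more. Of 17 other astroglial and radial glial factors, 15 were tested in the state contrasts, and 13 were higher and 1 was lower in AC than in OPC cells (median log2 fold change 1.11, all genes 0.01). The 1 that was lower was Emx2 (log2 -0.80 ± 0.21), which is named after its value was seen. Hopx, a factor of radial glia and astrocytes (170 ± 63.1 against 13.5 ± 3.22 CPM), and Hey1, a Notch target (385 ± 57.5 against 49.8 ± 9.92 CPM), rose most. Of 12 other oligodendroglial factors tested, 2 were higher and 5 lower (median -0.99). Zfp488 (log2 -3.42 ± 0.22) and Myrf (log2 -3.29 ± 0.25), both promoters of oligodendrocyte maturation, fell most, and Klf9 and Sall2 were the 2 that were higher (0.99 and 0.97). All 6 of the E proteins and other Id factors were higher in AC cells. Id1 (716 ± 111 against 25.1 ± 6.56 CPM) and Id3 (1077 ± 107 against 44.5 ± 25.3 CPM), which like Id4 lack a DNA-binding region, rose most. Of 14 other neural progenitor factors, 8 were higher, led above that level by Sox1 (3.21 ± 0.34) and Pou3f3 (0.84 ± 0.08), and Sox3 (-0.33 ± 0.08) was among those that were lower. In premyelinating cells 7 of the 12 other oligodendroglial factors were higher and 3 lower than in OPC cells (median 0.52), where 47.4% of all genes were called.

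Over the 40 sums of 5 samples and 8 gates, Olig1 and Olig2 ran together (Pearson r = 0.97 of log2 CPM), as did Sox10 and Nkx2-2 (0.91). Sox9 ran against Sox10 (-0.78) and Id4 against Olig2 (-0.84). Sox2 had no r beyond 0.30 in size other than -0.48 with Olig2 and -0.44 with Olig1. The 40 points share 5 samples and their libraries, so these values describe the pattern and were not tested. Among 7203 other genes at a mean log2 CPM of 5 or more, gate markers left out, those most like Id4 were Lxn (0.96), Lrig1 (0.95) and Cst3 (0.95), and those most like Sox10 were Mb21d2, Atcay and Fbxo7 (0.95, 0.95 and 0.94). Sox9 was most like Egfr (0.90), Gldc (0.89) and Smo (0.88), Nfia like Dpysl5 (0.94), Zfp423 (0.93) and Tspan5 (0.91), and Sox8 like Irs2 (0.93), Tada3 (0.92) and Serinc5 (0.91). Rap1gap led for both Olig1 (0.91) and Olig2 (0.93), Inava for Nkx2-2 (0.91) and Vhl for Sox2 (0.85).

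Detection was compared in cells thinned to 3000 UMIs, which left out 1970 of the 34594 tumor cells. A UMI of Sox2, Olig1 and Olig2 was found in 74.1%, 74.8% and 73.2% of the thinned tumor cells. Sox9 was found in 62.0%, Sox8 in 57.5%, Nfia in 49.6%, Sox10 in 36.9%, Nkx2-2 in 21.2% and Id4 in 13.2%. Immune-gated cells, which should lack most of these factors, were taken as a reference after the same thinning, which 1229 of 2910 immune cells did not reach. Their median depth was 3946 UMIs against 15676 in tumor cells. Thinning evens the number of UMIs and not the part of them that may come from other cells. The immune shares thus need not be the background of tumor cells. In them the shares were 17.0% for Olig1, 16.5% for Olig2, 15.0% for Sox2, 13.98% for Sox9, 14.04% for Nfia, 8.92% for Sox8, 7.26% for Sox10, 3.09% for Nkx2-2 and 2.50% for Id4. The 191 endothelial-gated cells that reached this depth gave higher shares, with 32.5% for Olig1, 21.5% for Olig2, 20.9% for Sox2, 24.1% for Sox9, 42.4% for Nfia, 17.8% for Sox8, 13.1% for Sox10, 6.28% for Nkx2-2 and 8.90% for Id4. In CPM, 8 of the 9 factors stood in immune cells at 13.1% to 15.0% of their tumor level, and Nfia at 24.1%.

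Set against this reference, some gates held low shares of a factor. The means given here lay above the immune share, and those of Id4 in the 3 oligodendroglial gates lay below the endothelial share of 8.90%. Id4 was detected in 59.3% ± 5.90 of AC cells (SD, n = 5) and in 3.82% ± 2.62 of OPC, 5.24% ± 1.12 of committed OPC and 4.54% ± 1.22 of premyelinating cells. Sox10 was detected in 84.3% ± 7.54 of premyelinating, 70.7% ± 9.42 of OPC, 19.6% ± 7.55 of Mfap4/Cpxm2 and 11.6% ± 3.59 of AC cells. The lowest AC sample, vehicle 2 with 5.96%, lay under the immune share of 7.26%. Nkx2-2 reached 50.5% ± 11.01 of premyelinating and 7.73% ± 2.98 of AC cells. In AC cells of vehicle 2 its share also lay under the immune share (2.48% against 3.09%). The same held for Id4 in OPC cells of vehicle 2 (0.52% against 2.50%). Sox9 remained at 30.6% ± 7.29 in premyelinating cells, and Olig2 at 44.7% ± 4.71 in AC cells, both above the immune share in every sample. Olig2 in AC cells was also above the endothelial share in every sample, while the lowest sample of Sox9 in premyelinating cells (21.2%) and the mean of Sox10 in AC cells lay below the endothelial share of that factor.

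Whether the factors met in the same cell was described by the share of cells with both, divided by the product of the 2 single shares. This ratio cannot exceed the inverse of the larger single share, so pairs with a widely detected factor are held nearer to 1. Ratios of pairs with unlike shares, or with and without thinning, are therefore not on 1 scale, and their order rests in part on detection. Over the 36 pairs the median ratio was 1.01, with 16 pairs above and 12 pairs below 1 in all 5 samples. Sox10 and Nkx2-2 had the highest ratio, 1.53 ± 0.27 (SD, n = 5), with 1.36, 1.97 and 1.39 in the vehicle and 1.33 and 1.63 in the Xevinapant samples. The lowest belonged to Sox10 and Id4 (0.55 ± 0.04), Nkx2-2 and Id4 (0.66 ± 0.11), Olig2 and Id4 (0.74 ± 0.03), Olig1 and Id4 (0.74 ± 0.04) and Sox9 and Sox10 (0.77 ± 0.05). Id4 met Sox9 (1.26 ± 0.15) and Nfia (1.22 ± 0.07) more often than the product. Olig1 and Olig2, which were both found in 61.2% ± 8.57 of tumor cells, had a ratio of 1.13 ± 0.05. Without thinning the ratio of Olig1 and Olig2 was 1.05, that of Sox9 and Sox10 0.975 and that of Olig2 and Id4 0.987, while that of Sox10 and Nkx2-2 was 1.28 and that of Sox9 and Id4 1.14.

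**Figure D3:**
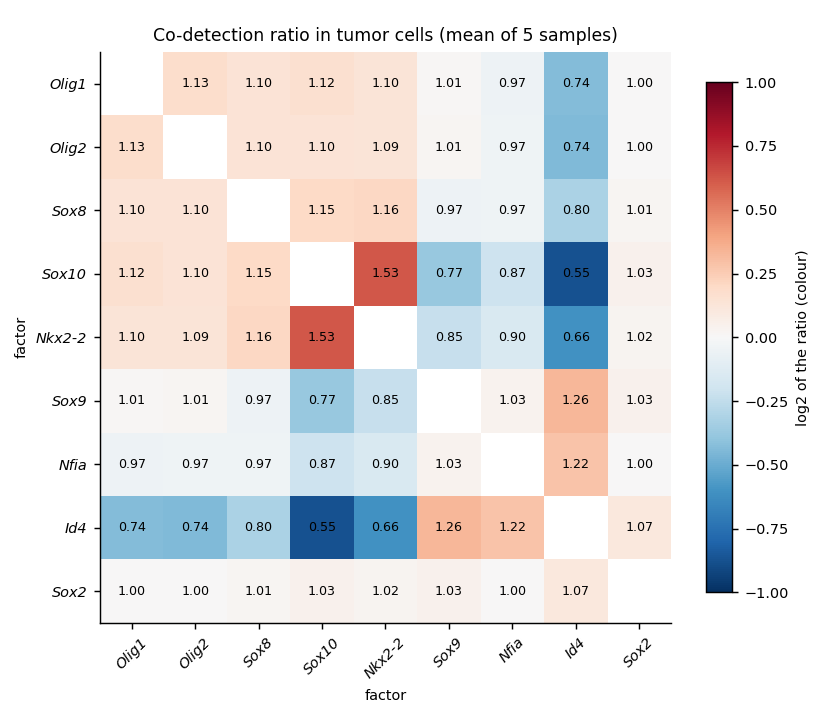
Co-detection ratio of each pair of factors in tumor cells thinned to 3000 UMIs, as the mean of 5 samples, where 1 means that the share with both equals the product of the single shares; the colour gives its log2. Sox10 with Nkx2-2 (1.53) is the deepest red and Sox10 with Id4 (0.55) the deepest blue. The ratio of a pair cannot exceed the inverse of its larger single share.

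The SoxE pair Sox9 and Sox10 was also described within single gates. Of all tumor cells, 42.5% ± 10.3 had Sox9 only, 21.5% ± 10.2 had Sox10 only, 17.6% ± 4.33 had both and 18.5% ± 5.47 had neither. In AC cells Sox9 alone was found in 68.2% ± 6.04 and Sox10 alone in 3.52% ± 1.39, while in premyelinating cells the shares were 9.33% ± 6.29 and 63.0% ± 8.37. OPC cells had the highest share with both, 27.5% ± 5.18. Within a gate the mean ratio was nearer to 1 than in all cells together (0.77 ± 0.05), but by little in MES cells (0.80 ± 0.07). The single shares differ between gates, which also limits how far each ratio can lie from 1. It was 0.88 ± 0.07 in OPC, 0.85 ± 0.01 in committed OPC, 0.84 ± 0.09 in premyelinating and 0.92 ± 0.05 in AC cells. Ungated cells had 0.83 ± 0.07. In each of these groups it was below 1 in all 5 samples. NPC (0.99 ± 0.09) and Mfap4/Cpxm2 cells (0.96 ± 0.11) had samples on both sides of 1. Olig2 and Sox10 had a ratio of 1.10 ± 0.02 in all cells, 0.9995 ± 0.0055 in OPC cells and 1.24 ± 0.13 in AC cells. In the Mfap4/Cpxm2 gate 68.7% ± 2.53 of cells had Olig2 without Sox10 and 17.3% ± 7.17 had both. Immune-gated cells also held UMIs of each factor, and the part of such UMIs in the shares with both was not tested.

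Xevinapant was compared with vehicle over all tumor-gated cells of a sample, to ask whether treatment moved these factors. No factor was called, and neither was any other gene: edgeR called 0 of 14407 genes (0%), with 1507 at an unadjusted p under 0.05, and DESeq2 called 228 genes, none of them a factor. With each of the 8 matrices as 1 sample, edgeR called 4.37% of genes and again no factor. Fewer cells of a kind and less RNA per cell cannot be told apart in these sums.

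**Figure D4:**
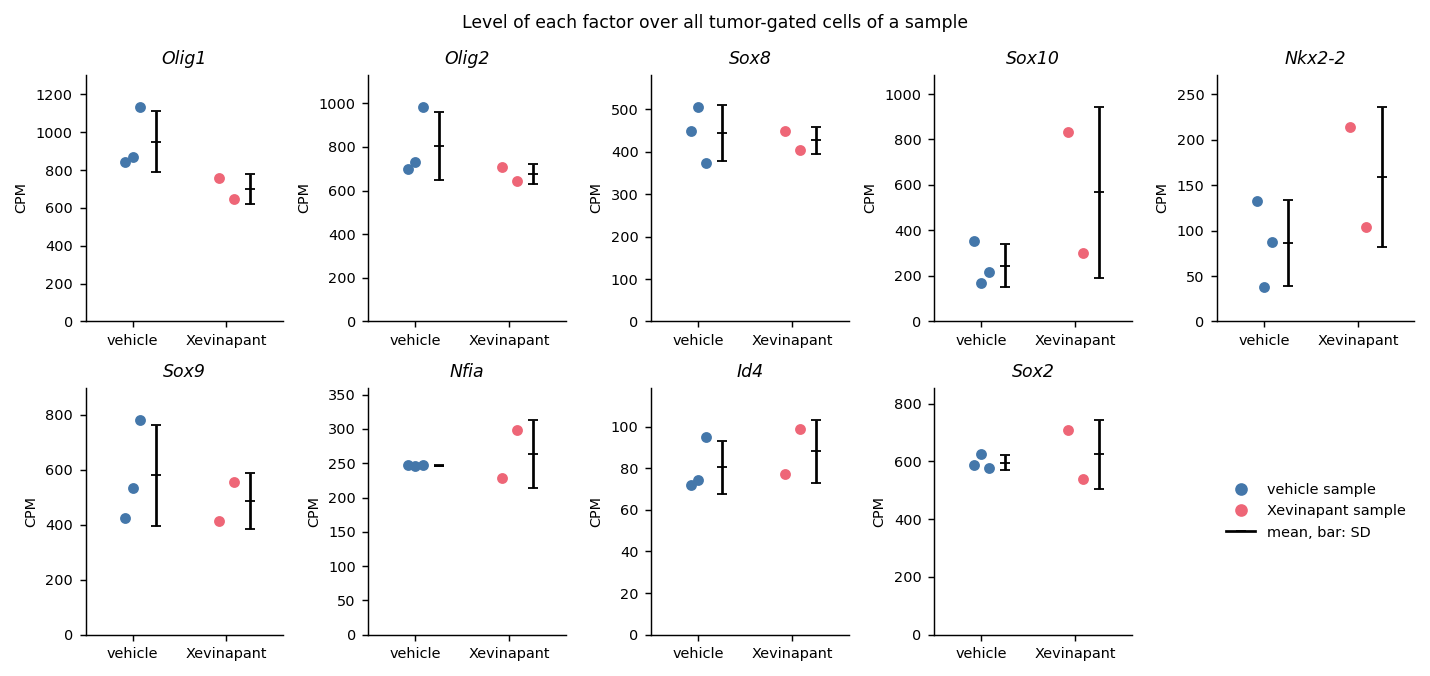
Level of each factor in CPM over all tumor-gated cells, with 1 point per sample and the mean with its SD beside it (3 vehicle and 2 Xevinapant samples). For Olig1 alone both Xevinapant samples lie below all vehicle samples, and Sox10 and Nkx2-2 are highest in 1 Xevinapant sample.

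Olig1 stood at 844, 869 and 1135 CPM in vehicle 1+3, 2 and 4 and at 758 and 645 CPM in Xevinapant 1+2 and 3+4. It was the one factor whose groups did not overlap, with a log2 fold change of -0.49 ± 0.19 (edgeR adjusted p = 0.461). For scale, 28.9% of the genes tested had groups that did not overlap, 10.7% with Xevinapant lower and 18.2% with Xevinapant higher. Sox10 stood at 353, 168 and 216 CPM in the vehicle and at 833.5 and 300.5 CPM in the Xevinapant samples, so that Xevinapant 3+4 lay below vehicle 1+3. Its log2 fold change was 1.16 ± 0.45 (edgeR adjusted p = 0.459), and without Xevinapant 1+2 it was 0.22. Nkx2-2 was at 132, 38.0, 88.0, 214 and 104 CPM in the same order (log2 0.84 ± 0.49, adjusted p = 0.558), and 0.21 without Xevinapant 1+2. The premyelinating gate held 16.6% of the tumor cells of Xevinapant 1+2, 8.48% of Xevinapant 3+4 and 10.8%, 4.28% and 4.09% of the vehicle samples. The log2 fold changes of the other 6 factors lay between -0.32 (Sox9) and 0.07 (Id4), with edgeR adjusted p from 0.584 to 0.985.

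Within single gates no factor was called either. Sox10 had a higher fitted level with Xevinapant in all 8 groups of cells (7 gates and the ungated cells, from the same 5 samples). The log2 fold changes ran from 0.03 ± 0.48 in the Mfap4/Cpxm2 gate to 1.22. In the NPC and Mfap4/Cpxm2 gates, Xevinapant 3+4 (104.9 and 51.8 CPM of Sox10) lay below every vehicle sample. Both Xevinapant samples lay above all vehicle samples in 5 of the 8 groups. The share of all genes doing so within gates was not counted, so this count has no background to be set against. In the sums of all tumor-gated cells 18.2% of the genes tested did so, and Sox10 did not. The smallest adjusted p was 0.111, in the OPC gate, where Sox10 stood at 561, 440.4 and 524 CPM in vehicle and at 1044 and 699.6 CPM in Xevinapant samples (log2 0.77 ± 0.17). Nkx2-2 had the same adjusted p there, with 142, 82.6 and 122 against 199 and 207.5 CPM (log2 0.80 ± 0.18). In this gate 0.0426% of all genes were called, against 0.00836% in the committed OPC gate, 0.00809% in the MES gate, 0.00742% in ungated cells and 0% in the other 4 groups. Olig1 was at -0.58 to -0.18 over the 8 groups, Olig2 at -0.36 to -0.06 and Sox8 at -0.49 to -0.002. Markers of fibroblasts (4 genes together, 17.5 to 35.7 CPM in vehicle and 40.2 to 77.8 CPM in Xevinapant tumor cells), immune cells (14 genes, 29.4 to 44.6 and 49.2 to 59.6 CPM) and erythrocytes (4 genes, 17.5 to 21.1 and 22.9 to 77.8 CPM) were higher in the Xevinapant samples, and their part was not tested. No marker of these lists was at 0 in the tumor sums, although the tumor gate limited their levels.

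Of 54 interactions (9 factors in 6 gates against the OPC gate), edgeR called 0, with 10 at an unadjusted p under 0.05. Of all genes 0.00759% were called in the NPC and 0.0379% in the Mfap4/Cpxm2 gate, and 0% in the other 4 gates. The smallest adjusted p was 0.262, for Nfia in NPC cells, where Xevinapant 3+4 was the high sample named above. Without Xevinapant 1+2, Xevinapant 3+4 is the lone treated sample and is assumed to vary like the vehicle samples. That fit called 3.46% of all genes in NPC cells, and edgeR called 4 interactions of the factors, all in that gate: Nfia (log2 1.05, adjusted p = 0.00591), Olig1 (-0.85, 0.0194), Sox2 (-0.61, 0.0243) and Sox10 (-1.54, 0.0338).

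The share of cells with a UMI of a factor was set against treatment in exact permutation tests over samples (two-sided), which cannot pass 0.05 with 3 and 2 samples, since their smallest p is 0.2. Olig1 was found in 76.3%, 76.6% and 84.7% of vehicle and in 70.7% and 64.5% of Xevinapant tumor cells, a difference of -11.5 percentage points (exact p = 0.2, adjusted over the 9 tests 0.514). Olig2 (-8.18 points) and Sox8 (-5.03 points) had the same p values. Sox10 was found in 40.8%, 25.9% and 33.1% against 60.8% and 34.5% (14.4 points, exact p = 0.4). Without thinning, Olig1 was found in 91.9% of vehicle and 87.5% of Xevinapant cells on average.

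Dividing cells, gated on G2M genes (Top2a, Mki67, Cenpf), were compared with non-cycling cells of the same samples. Non-cycling cells had marker levels of G2M and of S genes both below the mean of tumor cells, and could still hold UMIs of these genes. Of the 9 factors 8 were called by edgeR, 5 higher and 3 lower, where 78.6% of all genes were called, 38.4% higher and 40.2% lower. Id4 was 32.4 ± 3.64 CPM in G2M cells and 193 ± 59.7 CPM in non-cycling cells (SD, n = 5), lower in 5 of 5 samples (log2 -2.43 ± 0.15, edgeR adjusted p = 7.24e-11). Sox10 (321 ± 213 against 499 ± 312 CPM) and Nkx2-2 (101.5 ± 44.4 against 152 ± 85.9 CPM) were lower in all 5 samples too. Olig2 was 821 ± 168 against 623 ± 116 CPM (log2 0.54 ± 0.05, adjusted p = 2.34e-08) and higher in 5 of 5 samples. Olig1 was higher in 5 of 5 samples as well (log2 0.28 ± 0.04, adjusted p = 1.21e-06). Those 5 calls kept their direction when libraries were scaled by their size alone, and Olig1 was then at 0.14 and Olig2 at 0.40. This scaling moved the median of all genes from -0.03 to -0.17 and the share of calls that were higher from 48.8% to 35.9%. With library size Sox8 was called lower (-0.26, edgeR adjusted p = 0.000896). With TMM it was called lower without vehicle 4 (-0.18, edgeR adjusted p = 0.0164) and stood at -0.18 without Xevinapant 3+4. The small differences of Sox2 (0.15), Sox9 (0.14) and Nfia (0.16) turned on the scaling. With library size they were 0.01, -0.004 and 0.02 and not called. The calls of Sox9 and Nfia were also lost without Xevinapant 1+2 (adjusted p = 0.0544 and 0.147), that of Sox9 without vehicle 4 (0.0647), and that of Nfia without vehicle 1+3 and without vehicle 2 (0.0666 and 0.134).

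**Figure D5:**
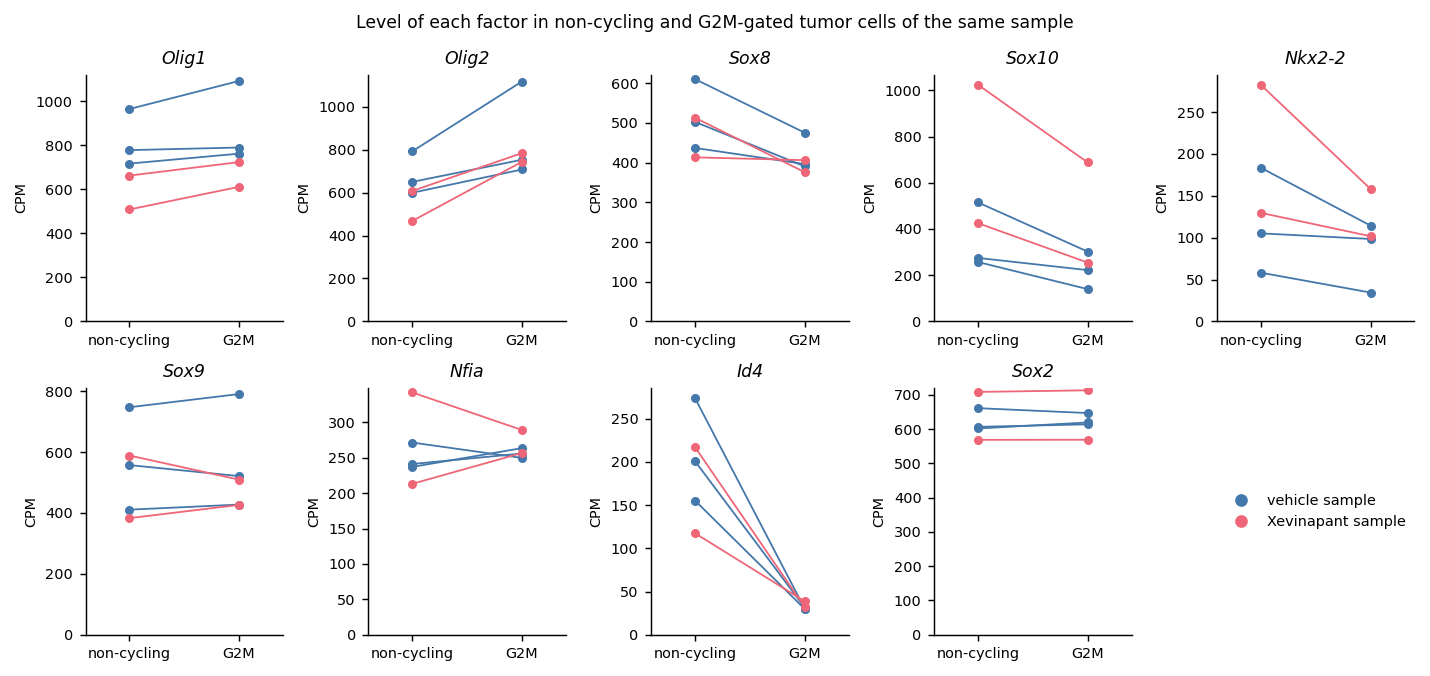
Level of each factor in CPM in the non-cycling and the G2M-gated tumor cells, with a line for each sample. All 5 lines fall for Id4, Sox10, Nkx2-2 and Sox8 and all 5 rise for Olig1 and Olig2, although Sox8 did not pass the test over all 5 samples with TMM scaling.

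The states were not equally represented in the cycle gates, and the AC gate made up 22.8% ± 4.71 of non-cycling and 2.98% ± 0.74 of G2M cells. Within single gates some directions turned. In OPC cells Olig1 was at 1046 ± 67.7 CPM in G2M and 1339 ± 214 CPM in non-cycling cells, lower in 4 of 5 samples, and Olig2 was lower in 4 of 5. Olig1 was lower in G2M cells in 5 of 5 samples of the committed OPC gate (935 ± 118 against 1267 ± 150 CPM) and in all 4 samples with enough cells of the premyelinating and of the Mfap4/Cpxm2 gate, and Olig2 in 4 of 5 committed OPC and all 4 premyelinating samples. Olig2 was higher in G2M cells in 5 of 5 samples of the NPC and MES gates and of the ungated cells, in all 3 AC samples and in 3 of 4 Mfap4/Cpxm2 samples. Nfia was higher in G2M cells in 5 of 5 samples of the OPC, committed OPC and MES gates and lower in 5 of 5 of the NPC gate (283 ± 59.1 against 499 ± 228 CPM). Id4 was lower in G2M cells in 5 of 5 samples of the MES (22.5 ± 7.18 against 56.0 ± 8.94 CPM) and NPC gates and of the ungated cells (26.9 ± 5.19 against 59.6 ± 10.7 CPM). In AC cells Id4 was lower in G2M cells in all 3 samples that had enough of them. Sox10 was higher in G2M cells in 5 of 5 samples of the NPC gate (304 ± 227 against 229 ± 146 CPM), and Nkx2-2 in 3 of 5 samples of the NPC gate and of the ungated cells. These within-gate values are descriptions without a test.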

How the data were processed

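The authors mapped reads to mm10 and counted UMIs with Cell Ranger (3.0 in the labels, 7.1.0 in the file headers), and deposited unnormalised UMI counts per gene and barcode, 4 matrices per group. From these counts, 54574 of 56943 barcodes were kept, those with a complexity score of 0.8 or more, 200 genes or more and no more than 10% of UMIs from mitochondrial genes, and 3612 doublets found by Scrublet, run per matrix in scanpy 1.11.5, were removed. Counts of tumor-gated cells were summed per sample, or per sample and gate (at least 30 cells a sum), and tested with edgeR 4.0.16 (TMM, filterByExpr, quasi-likelihood) with Benjamini-Hochberg adjustment over all genes at 0.05. DESeq2 1.42.0 was an alternative. CPM values use library size. Tumor sums held 82484268 to 224586171 UMIs a sample. Labels do not tie matrices to animals, so p-values of treatment measure the spread between these samples. Those between gates measure the spread of the gate differences over the same samples. Detection was compared after thinning to 3000 UMIs. The statistical steps were tested on simulated data. In the treatment design 65 of 100 genes changed 2-fold and 93 of 100 changed 4-fold were recovered, with 14 false calls among 172. In the contrast of the AC with the OPC gate 99 and 100 of 100 were recovered, with 7 false calls among 206. The 9 factors and the gene lists were chosen with earlier results of these data known. In the pathway lists, the 2 genes that rose and the 2 that fell most in the AC contrast were named, where the mean log2 CPM reached 3. A gene that this rule names is not reported here. The 3 genes most like each factor were taken where it reached 5.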

Additional observations from a re-analysis of the deposited data

How the results depend on the processing

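Treatment called 0 genes in the main test, 228 in DESeq2 and 610 with each of the 8 matrices as 1 sample, none of them a factor, and 0 in each fit without 1 sample. With the matrix number as a replicate block over the 8 matrices, 0 genes were called against 610 without the block; the labels tie a number to no animal or batch, so the matrices share only a number and no factor's call changed. Interaction calls ranged from 0 to 4 without 1 sample. The detection difference of Nfia was 0.524 points without thinning and -3.35 to 2.40 without 1 sample, and that of Sox2 -7.09 to 2.39. With 8 matrices Olig1 (-10.8 points) and Sox8 (-4.67 points) reached the smallest exact permutation p of 0.0286. The median co-detection ratio was 1.03 without thinning.

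Treatment differences of 6 factors, none of them called, changed sign in some settings. Sox2 was at -0.0057 with no filter on low counts, -0.075 with the stricter tumor gate, -6.64e-05 in AC, -0.14 in NPC, -0.15 in MES, -0.14 in Mfap4/Cpxm2 and -0.033 in ungated cells. Nfia was at -0.0031 in OPC, -0.0701 in committed OPC and -0.0395 in MES cells. Id4 was at -0.38 in committed OPC, -0.40 in premyelinating, -0.22 in AC and -0.10 in NPC cells. Sox9 was at 0.22 in AC and 0.0146 in Mfap4/Cpxm2 cells, and Nkx2-2 at -0.0842 in NPC cells. Without 1 sample the ranges were -0.213 to 0.216 for Sox2, -0.0902 to 0.221 for Id4, -0.21 to 0.00595 for Sox8 and -0.14 to 0.21 for Nfia. Sox2 was at -0.0032 without vehicle 1+3, -0.0053 without vehicle 4 and 0.0543 without vehicle 2, and Id4 at -0.0088 without vehicle 1+3.

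With the second gating, committed OPC values turned to -0.12 for Olig2, -0.25 for Sox10, -0.20 for Nkx2-2 and 0.15 for Nfia, and premyelinating values to -0.39 for Sox8, 0.27 for Sox9, -0.0066 for Nkx2-2 and 0.19 for Nfia. By its construction the OPC reference then also held cells that passed other gates. In vehicle samples alone Sox2 in NPC cells was at 0.0782, and Id4 in premyelinating cells at 0.63, and in Xevinapant samples alone Id4 was at -0.41 in committed OPC and -0.32 in premyelinating cells. Without 1 sample, Id4 in committed OPC cells ranged from -0.0761 to 0.297 (-0.0545 without vehicle 2), Olig2 in Mfap4/Cpxm2 cells from -0.0209 to 0.0655 (-0.0088 without Xevinapant 1+2 and 0.0298 without vehicle 2) and Sox2 in NPC cells from -0.074 to 0.0773. In G2M cells Sox9 was at -0.0042 with library size. The causes of these changes were not tested. Fits without doublet removal, without cells above the 95th percentile of UMIs or with library size in the cell cycle contrast, and those leaving samples out of it, were chosen after seeing the data.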
